A study of Homo sapiens with 8 samples.

Results

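Promoter-proximal intronic peaks are places near the start of a gene where polyadenylated RNA was captured inside the first intron. They were taken from 1 list of 153624 poly(A) peaks. A peak was counted when its summit lay in the first intron of the longest-span transcript of a protein-coding gene and within 5 kb of that transcript's start. It also had to overlap no annotated exon and to lie outside the window from 200 bp before to 600 bp after any annotated transcript end. This gave 5574 peaks in 4124 genes, which is 3.63% of the list, 6.56% of the 84907 intronic peaks chosen by the same exclusions and 24.7% of the 22577 peaks in first introns. Of these peaks, 40 met the rule for more than 1 gene and were counted once.

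The libraries were made from Kelly cells, a MYCN-amplified human neuroblastoma line, and from Kelly E9R cells, a derivative of Kelly whose CDK12 carries a point mutation at the cysteine that THZ531 binds. THZ531 is a covalent inhibitor of CDK12 and CDK13, kinases of the RNA polymerase II C-terminal domain. The 4 groups were Kelly with DMSO, Kelly with THZ531, Kelly E9R with DMSO and Kelly E9R with THZ531, each with 2 libraries labelled as biological duplicates and treated for 6 h, with THZ531 at 400 nM per the labels; the methods of the study give another dose for these cells. The study asked whether loss of CDK12/13 activity makes transcripts end early at intronic poly(A) sites. The authors called the peaks on the merged reads of all 8 libraries, so that no value below belongs to a cell line or a treatment, no value has a replicate, and THZ531 could not be compared with DMSO.

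An RNA polymerase II transcript is cleaved and polyadenylated when a hexamer, most often AATAAA or ATTAAA in the DNA, lies a short way before a cleavage site. The hexamer is bound by CPSF, and GU- or U-rich sequence after the site is bound by CSTF. U1 snRNP, which pairs with the 5′ splice site, also represses such sites inside introns near gene starts, a role known as telescripting. An oligo(dT) primer can also anneal to a run of A inside a transcript, so that a peak before genomic A may be such an internal priming event and not a cleavage site. The sequence around each peak was therefore read together with its values. As its 3′ end each peak was given the edge farthest downstream on the gene's strand, since the peaks carry no strand of their own. A-rich sequence means 6 A in a row or 7 A of 10 in the 50 bp after that end. A peak is called site-like here when AATAAA or ATTAAA starts 10 to 35 bp before the 3′ end and no A-rich sequence follows. This definition was drawn up after the sequences had been seen.

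The sequences that follow come from 2 of the 8 strongest site-like peaks that also have none of the 12 hexamers of the study in the mirror-image window of the opposite strand, and show a hexamer at the usual distance from the end of a peak. In total 359 peaks met that narrower condition. The other peaks of the set are given by their values only. Each line holds the 100 bases before and the 30 bases after the 3′ end (GRCh38, gene strand, 5′ to 3′), with the AATAAA or ATTAAA copies at 10 to 35 bp in capitals.
MMD, chr17:55419574-55419703 (minus strand): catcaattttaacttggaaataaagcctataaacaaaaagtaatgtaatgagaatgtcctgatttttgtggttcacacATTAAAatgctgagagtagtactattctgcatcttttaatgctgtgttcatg
CCT4, chr2:61887908-61888037 (minus strand): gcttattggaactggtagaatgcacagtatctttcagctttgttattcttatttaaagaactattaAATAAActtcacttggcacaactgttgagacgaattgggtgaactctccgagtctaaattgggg

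In MMD a single ATTAAA started 22 bp before the end, in mixed sequence. In CCT4 a single AATAAA started 34 bp before it. A-rich sequence in the last 40 bp before the 3′ end was present in 7 of the 8 peaks of the set, CCT4 among them, and absent in MMD. The A of a hexamer in that window count toward it.

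The next 5 sequences belong to peaks with the highest −log10 q, where a hexamer or A-rich sequence was present, and the capitals mark any of the 12 hexamers in the 100 bases before the 3′ end. The other peaks of this set are given by their values only.
FBXL14, chr12:1591320-1591449 (minus strand): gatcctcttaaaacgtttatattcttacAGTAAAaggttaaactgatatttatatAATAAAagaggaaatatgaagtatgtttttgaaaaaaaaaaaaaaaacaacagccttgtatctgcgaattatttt
WDR86, chr7:151406823-151406952 (minus strand): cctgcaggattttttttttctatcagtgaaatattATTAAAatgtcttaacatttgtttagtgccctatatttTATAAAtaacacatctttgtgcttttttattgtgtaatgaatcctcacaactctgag
ATXN1, chr6:16759512-16759641 (minus strand): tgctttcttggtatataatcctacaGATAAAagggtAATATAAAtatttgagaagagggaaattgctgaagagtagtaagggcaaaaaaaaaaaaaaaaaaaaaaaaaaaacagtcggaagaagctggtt
ZBTB20, chr3:115146397-115146526 (minus strand): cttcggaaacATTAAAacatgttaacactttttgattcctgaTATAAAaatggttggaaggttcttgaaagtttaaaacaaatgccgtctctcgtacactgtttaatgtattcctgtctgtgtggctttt
NXN, chr17:978252-978381 (minus strand): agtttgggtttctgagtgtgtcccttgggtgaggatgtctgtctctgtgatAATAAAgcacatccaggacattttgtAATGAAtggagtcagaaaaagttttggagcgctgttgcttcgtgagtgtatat

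In ATXN1 a long run of A crossed the 3′ end, and in FBXL14 a shorter run ended just past it. In WDR86, ZBTB20 and NXN the hexamers stood 23 to 90 bp before the end and no A-rich sequence followed. WDR86 and ZBTB20 had A-rich sequence in the last 40 bp before the end, and NXN did not.

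The last 5 sequences show site-like peaks in genes of interest, namely a termination factor with a pair of them, an axon guidance receptor and an RNA helicase. They were chosen after their values had been seen. The hexamer at 10 to 35 bp is in capitals.
PCF11, chr11:83158793-83158922 (plus strand): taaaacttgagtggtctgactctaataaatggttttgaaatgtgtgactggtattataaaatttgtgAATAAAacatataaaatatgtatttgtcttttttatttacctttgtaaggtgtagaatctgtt
PCF11, chr11:83159807-83159936 (plus strand): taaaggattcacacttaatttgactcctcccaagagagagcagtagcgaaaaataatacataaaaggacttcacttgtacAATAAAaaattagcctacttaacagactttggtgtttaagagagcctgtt
NRP2, chr2:205684723-205684852 (plus strand): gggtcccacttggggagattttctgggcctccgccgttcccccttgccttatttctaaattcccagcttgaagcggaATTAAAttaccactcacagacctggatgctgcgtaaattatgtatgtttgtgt
DDX17, chr22:38503635-38503764 (minus strand): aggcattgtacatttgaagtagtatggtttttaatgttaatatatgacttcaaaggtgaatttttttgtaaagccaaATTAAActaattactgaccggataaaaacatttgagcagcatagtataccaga
DDX17, chr22:38502973-38503102 (minus strand): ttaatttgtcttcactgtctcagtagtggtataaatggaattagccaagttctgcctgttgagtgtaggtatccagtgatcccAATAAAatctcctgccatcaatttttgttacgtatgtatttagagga

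Hexamers stand before many intronic positions, so each peak's opposite strand served as its background. Of the 5574 peaks, 50.9% had 1 or more of the 12 hexamers in the 100 bp before the 3′ end on the gene's strand, against 33.6% in the mirror-image window of the opposite strand. A hexamer was present only on the gene's strand in 1568 peaks and only on the opposite strand in 603 (exact McNemar test, two-sided, p = 2.05e-98). The hexamers are themselves rich in A. A-rich sequence in the last 40 bp before the 3′ end was found in 45.6% of peaks, against 16.3% on the opposite strand. The 2 strands are therefore not matched for A content, and the part of this in the difference was not tested. With each peak counted under 1 hexamer, AATAAA before ATTAAA before the others, AATAAA was found in 22.5% of peaks against 8.06% on the opposite strand, and ATTAAA in 7.03% against 4.81%. The shares were lower for AAGAAA, at 4.18% against 3.23%, and for AGTAAA, at 3.32% against 2.21%. The shares for AATGAA were 2.37% against 1.94%, those for AATATA 2.05% against 1.83%, those for GATAAA 1.65% against 1.26% and those for AATAGA 1.06% against 0.951%. The others were TATAAA at 2.22% against 2.67%, AATACA at 2.06% against 3.18%, CATAAA at 1.47% against 2.13% and ACTAAA at 1.0% against 1.35%. A peak with AATAAA is not counted under any later hexamer, which lowers the later shares on the gene's strand, so that no order of strands is read from them.

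The position of the hexamer was sharper than its presence. AATAAA or ATTAAA started 10 to 35 bp before the 3′ end in 21.04% of the peaks (95% Wilson interval 19.99 to 22.13) and in 4.41% on the opposite strand. In bins of 5 bp the highest density was 8.70 hexamers per 100 peaks at 25 to 21 bp before the end, where the opposite strand had 1.24. A further maximum lay at the end itself, with 6.30 per 100 peaks in the last 5 bp before it and 5.79 in the first 5 bp after it. In peaks of the first intron beyond 5 kb this order was turned around, with 4.95 per 100 peaks at 25 to 21 bp against 7.75 in the last 5 bp. Peaks of later introns had 7.53 and 6.96.

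**Figure D1:**
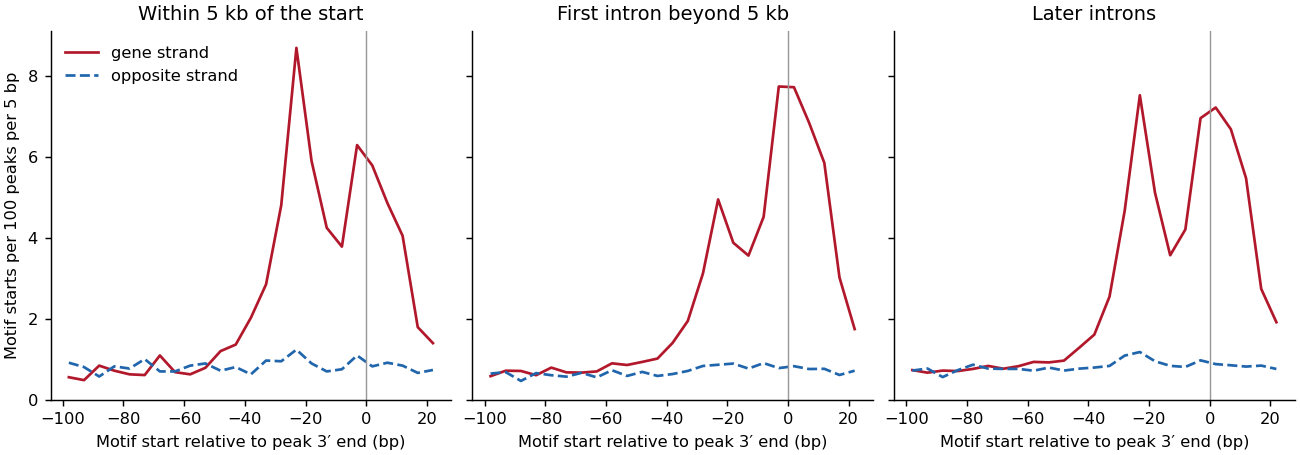
Starts of AATAAA or ATTAAA per 100 peaks (y axis) in bins of 5 bp relative to the 3′ end of the peak (x axis, bp), on the gene's strand (solid) and the opposite strand (dashed), for the promoter-proximal peaks (left), first introns beyond 5 kb (middle) and later introns (right). The promoter-proximal peaks have their maximum, 8.70 per 100, at 25 to 21 bp before the end, and the opposite strand stays low there at 1.24.

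Sequence that could prime oligo(dT) was more frequent still. A-rich sequence followed 70.9% of the peaks on the gene's strand and 19.2% on the opposite strand (3397 against 513 peaks with it on 1 strand only). It followed 16.0% of all positions of the same intron sequence. A longer tract, 25 A in which up to 3 bases may differ, followed 5.65% against 0.807%. The steps the study describes, which remove a peak with such a tract and no hexamer, would remove 264 peaks (4.74%). Of the 5574 peaks, 41.1% had A-rich sequence and no hexamer, 29.8% had both, 21.1% had a hexamer and no A-rich sequence, and 8.02% had neither. The share with a hexamer and no A-rich sequence was 25.5% over all positions of the same sequence and 23.6% on the opposite strand of the peaks, so that this pair of features on its own was no more frequent than its background.

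Site-like peaks numbered 768 in 716 genes, which is 13.8% of the peaks (12.9 to 14.7), against 2.91% on the opposite strand and 2.13% of all positions. In 747 peaks the gene's strand alone was site-like, and in 141 the opposite strand alone (exact McNemar test, two-sided, p = 2.64e-100). The same A-rich tract can carry both a hexamer and a primer site just inside the peak. A-rich sequence in the last 40 bp before the 3′ end was found in 555 of the 768 (72.3%) and 28 (3.65%) held CCAGCCTG, 8 letters that are common in Alu repeats, in the last 150 bp. Without both kinds 210 peaks in 208 genes remained (3.77% against 0.933% on the opposite strand, 209 against 51 peaks, exact McNemar test, p = 6.97e-24). The share of priming within the peak itself was not tested.

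Alu letters moved with A-rich sequence. CCAGCCTG preceded 17.9% of all promoter-proximal peaks against 2.44% on the opposite strand and 4.02% of positions. It was present in 946 (23.9%) of the peaks before A-rich sequence and in 50 (3.08%) of the others. The authors kept reads with several map positions, and the part of this in peaks of repeats was not tested.

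Compared with the 17003 peaks of first introns beyond 5 kb, the promoter-proximal peaks were less often followed by A-rich sequence (70.9% against 86.7%, a difference of −15.8 percentage points, Fisher's exact test, adjusted p = 3.19e-148). They more often had a hexamer and no A-rich sequence (21.1% against 9.0%, Fisher's exact test, adjusted p = 5.19e-115). The share with any hexamer differed by 4.18 points (Fisher's exact test, adjusted p = 7.26e-08). Site-like peaks were 5.86% of the farther peaks, with 2.46% on the opposite strand, and 1.62% of the farther peaks were site-like without A-rich tract or Alu letters. A −log10 q of at least 5, the limit the study used on peaks, was reached by 74.1% against 67.4% (Fisher's exact test, adjusted p = 4.96e-21), but with only the strongest peak of each gene and class this last difference was turned around, at −7.32 points (adjusted p = 2.74e-17). In the same comparison the A-rich difference was −10.4 points (Fisher's exact test, adjusted p = 2.22e-27) and that for a hexamer without it 8.05 points (Fisher's exact test, adjusted p = 8.12e-22). Genes with peaks had 1.35 promoter-proximal peaks each and 4.48 farther ones, so that the strongest was then the best of more peaks in the farther class. Adjustment is Benjamini-Hochberg over 8 tests, and peaks of 1 gene share a transcript and are not replicates.

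Compared with 62330 peaks of later introns, A-rich sequence was again less frequent (70.9% against 79.5%, −8.61 points, Fisher's exact test, adjusted p = 1.69e-47), and a hexamer without it more frequent (21.1% against 15.4%, adjusted p = 6.09e-27). Site-like peaks were 10.5% of the peaks of later introns, with 2.82% on the opposite strand, and 3.06% were site-like without A-rich tract or Alu letters, against 13.8% and 3.77% near the start; this difference was not tested. The share with any hexamer differed by 0.0646 points (Fisher's exact test, adjusted p = 0.933). With the strongest peak per gene and class, where later introns had 7.0 peaks per gene, the A-rich difference became 4.68 points (Fisher's exact test, adjusted p = 1.04e-07), the difference for a hexamer without it −2.71 points (adjusted p = 0.000606), that for any hexamer −0.661 points (adjusted p = 0.486) and that for a −log10 q of at least 5 −11.7 points (adjusted p = 9.86e-70), against 6.14 points over all peaks (adjusted p = 1.38e-21). The contrast with later introns therefore depends on which peaks of a gene are counted.

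The peaks were not spread evenly over the first 5 kb. The median distance of the summit from the transcript start was 2308 bp (quartiles 1364 and 3515, range 154 to 4996), and the median distance from the 5′ splice site was 2015 bp. Within 500 bp of the 5′ splice site lay 429 peaks (7.70%). Per 100 kb of usable intron sequence, that is sequence the rule leaves open, there were 4.01 peaks at 0 to 0.5 kb (95% interval 3.35 to 4.76, counting error only), 10.8 at 0.5 to 1 kb, 12.7 at 1 to 2 kb, 12.2 at 2 to 3 kb, 11.0 at 3 to 4 kb and 10.6 at 4 to 5 kb. The density fell on beyond the limit of the rule, to 9.24 at 5 to 10 kb, 8.59 at 10 to 20 kb and 6.52 farther in.

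Site-like peaks lay closer to the start than peaks before A-rich sequence did. The density of site-like peaks was 0.647 per 100 kb in the first 0.5 kb, reached 2.39 (2.02 to 2.80) at 0.5 to 1 kb, and was 2.03, 1.53, 1.18 and 0.920 in the following bins of 1 kb. Beyond 5 kb it was 0.795, then 0.616 from 10 kb and 0.296 beyond 20 kb. On the opposite strand of the same peaks it stayed between 0.168 and 0.445 in all bins. The median distance of site-like peaks was 1813 bp, against 2487 bp for peaks before A-rich sequence. For all 1622 promoter-proximal peaks without A-rich sequence, site-like or not, it was 1882 bp, close to that of site-like peaks.

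**Figure D2:**
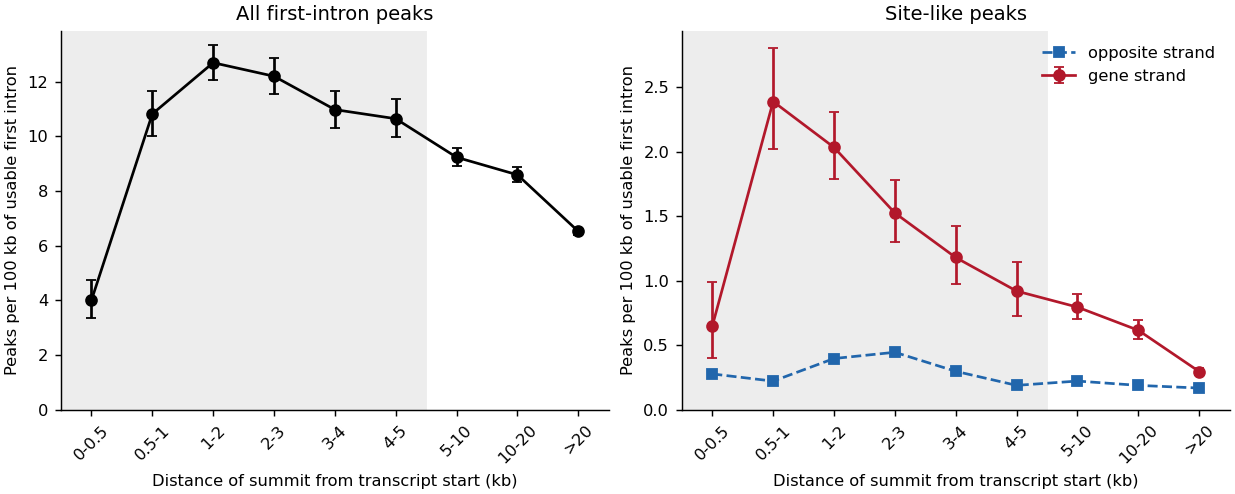
Peaks per 100 kb of usable first intron (y axis) by distance of the summit from the transcript start (x axis, kb), for all peaks (left) and for site-like peaks on the gene's strand and on the opposite strand (right), with 95% Poisson intervals and the first 5 kb shaded. All peaks are densest at 1 to 2 kb (12.7), site-like peaks at 0.5 to 1 kb (2.39).

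The sequence under the peaks changed over the same distance. The GC content of usable intron sequence was 58.1% at 0 to 0.5 kb, 51.1% at 0.5 to 1 kb and 43.3% at 4 to 5 kb, and AATAAA rose from 0.284 to 0.858 copies per kb. The share of peaks before A-rich sequence was 50% in the first bin and 78.1% at 4 to 5 kb, while that of positions was 8.27% and 17.8%. The share of site-like peaks was 16.2% in the first bin, 22.1% at 0.5 to 1 kb and 8.64% at 4 to 5 kb, while that of site-like positions was 0.881%, 1.55% and 2.39%. The Alu letters were before 3.85% of peaks in the first bin and 21.9% at 4 to 5 kb.

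**Figure D3:**
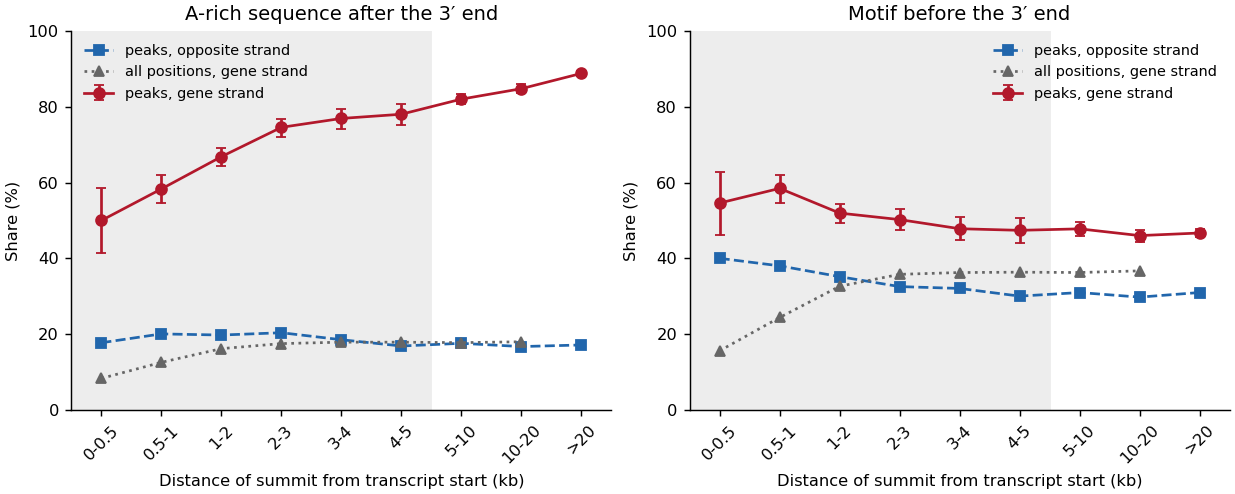
Share (y axis, percent) of first-intron peaks on the gene's strand (95% Wilson intervals) and on the opposite strand, and of all positions of the same sequence, with A-rich sequence after the 3′ end (left) or any of the 12 hexamers before it (right), by distance of the summit from the transcript start (x axis, kb), with the first 5 kb shaded. Peaks before A-rich sequence rise from 50% in the first bin to 78.1% at 4 to 5 kb and 88.9% beyond 20 kb, while peaks with a hexamer lie between 46.0% and 58.5%.

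Near and farther first intron were then compared within genes. In 8343 genes with usable sequence in both windows the density was 11.98 per 100 kb up to 5 kb and 8.88 from 5 to 20 kb, a ratio of 1.35. It was higher near the start in 2797 genes and lower in 1937 (exact sign test, two-sided, p = 5.86e-36). The ratio was 2.44 for site-like peaks (574 against 403 genes, exact sign test, p = 4.98e-08) and 1.15 for peaks before A-rich sequence (2195 against 1964 genes, exact sign test, p = 0.000361). Peaks with neither a hexamer nor A-rich sequence had a ratio of 2.11, with 298 against 278 genes (exact sign test, p = 0.429). The higher ratio was thus not particular to site-like peaks. For the site-like peaks without A-rich tract or Alu letters the ratio was 2.499, with 168 against 137 genes (exact sign test, p = 0.0857). On the opposite strand of the same peaks the ratio was 1.53, while more genes were denser in the farther window (112 against 150, exact sign test, p = 0.0221). The farther window is longer, and a gene with few peaks then more often has one there at equal density.

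As values, the promoter-proximal peaks were low and narrow like other intronic peaks. The median width was 105 bp (range 100 to 700). The median fold enrichment was 6.21, against 5.93 in each of the comparison classes. It is the authors' ratio of summit pileup to local background, with a small constant added to each. The pileup, which counts reads extended to 100 bp over the summit, was recovered from these values and had a median of 9 (quartiles 7 and 13, range 3 to 52), against 8. The local background had a median of 0.60 reads, against 0.38 in the farther first intron and 0.42 in later introns. Duplicate handling is not stated, and the highest pileup in the list was 200, as many as there are start positions on both strands over 100 bp, so that pileups may count distinct positions.

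The 5 peaks just inside the limit lay at 4992 to 4996 bp in PPM1N, EFNB2, CUL1, DAGLB and GRK4, with pileups between 9 and 20. The 5 just outside lay at 5001 to 5005 bp in MSANTD2, ZSWIM6, PPM1A, UBN2 and SMAD6, with pileups between 9 and 30.

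Of 17755 protein-coding genes with usable sequence, 4124 had 1 or more promoter-proximal peaks (23.2%, 95% Wilson interval 22.6 to 23.9). Of the 11798 with a peak at an annotated transcript end, taken here as a sign of expression, 3707 had them (31.4%, 30.6 to 32.3), and of the 5957 others 417 (7.0%). A gene had 1 such peak in 2930 cases, 2 in 965, 3 in 205, 4 in 21 and 5 in 3. The median spacing of neighbours in a gene was 1019 bp. The tissue fitted its label as far as the list shows it. All 13 neuroblastoma markers looked up (HAND2, GATA3 and MYCN among them) had a peak at an annotated end, and 3 of 8 markers of other cell types did (COL1A1, PDGFRB and EPCAM).

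The chance that a gene had a peak depended on the usable length. The share was 1.35% of genes with up to 1 kb and 38.3% of genes with more than 4 kb, or 1.89% and 50.3% where the gene had an end peak. Among 5429 genes with an end peak and more than 4 kb, those with the weakest end peaks (pileup 3 to 14) had a promoter-proximal peak in 38.1% of cases, and those of the 3 higher quartiles in 54.1%, 55.2% and 54.4%. For site-like peaks the shares were 6.89%, 9.87%, 10.2% and 8.01%.

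**Figure D4:**
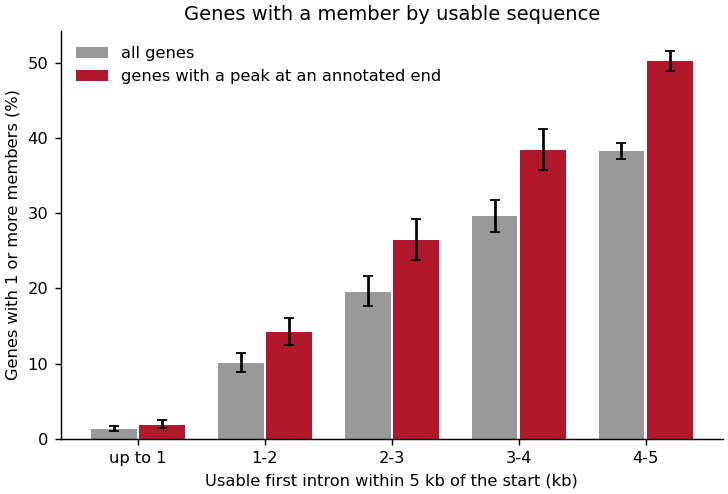
Share of genes with 1 or more promoter-proximal intronic peaks (y axis, percent) by usable first intron within 5 kb of the start (x axis, kb), for all genes and for genes with a peak at an annotated end, with 95% Wilson intervals. The share rises with usable length to 38.3% of all genes and 50.3% of genes with an end peak.

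In the same 5429 genes, runs of 6 A had a median of 3.03 per kb in the 2731 genes with a promoter-proximal peak and 1.41 in the 2698 without (standardised difference 0.552). AATAAA had 0.640 against 0.448 per kb, and GC content 44.6% against 45.7%. U1 motifs, the 5′ splice site letters that U1 snRNP binds, had 0.658 against 0.652 per kb (standardised difference 0.0185). For peaks with a hexamer and no A-rich sequence, the standardised difference was 0.0223 for runs of 6 A and 0.296 for AATAAA. These are descriptions over genes, without a test.

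Against the end of the same gene the promoter-proximal peaks had lower pileups. Since pileups may count distinct positions, high ones may be held down, so that these values are not ratios of RNA amount. The pileup of the strongest was a median 0.45 of that of the strongest end peak (quartiles 0.30 and 0.686, 3707 genes), and in 320 genes (8.63%) it was higher. THEM4, which encodes a mitochondrial thioesterase, had the highest −log10 q, 60.4, at 1966 bp, with a pileup of 52 against 11 at its end. This peak had neither a hexamer nor A-rich sequence. In WDR86 (pileup 36, fold enrichment 20.8) and FBXL14 (50 and 43 in neighbouring peaks) no end peak was found. FBXL14 lies in the span of WNT5B on the opposite strand. ATXN1, the gene of a spinocerebellar ataxia, had a pileup of 35 before a run of A, against 16 at its end. In ERV3-1 it was 37 against 5, in TSNAXIP1 30 against 12 and in the transcriptional repressor ZBTB20 42 against 23, whereas in NXN, a thioredoxin-like oxidoreductase, the 38 and 35 were close. The ERV3-1 peak was followed by A-rich sequence and also lies in the span of ZNF117, and the TSNAXIP1 peak had no hexamer. ZNF98 had a pileup of 26 before A-rich sequence and no end peak. Of the 100 peaks with the highest −log10 q, 80 had a hexamer, against 50.9% of all promoter-proximal peaks. A-rich sequence followed 44, against 70.9%. Site-like were 21, against 13.8%, and 4 were site-like without A-rich tract or Alu letters, against 3.77%.

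Among the strongest site-like peaks with a clear opposite strand, INPP5E, a ciliary inositol phosphatase, had a pileup of 44 against 28 at its end. MMD had 35 against 26, ARHGAP19, a GTPase-activating protein, 27 against 16, CUEDC2 30 against 18 and SLC2A11, a sugar transporter, 26 against 21. CCT4, a subunit of the TRiC chaperonin, had 31 against 35. SLC25A37, the iron carrier mitoferrin-1, had 25 against 14 and OXR1 33 against 21. In 7 of these 8 genes the promoter-proximal pileup was the higher value; they had been chosen for the strength of that peak.

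The genes with most peaks were DDX17, an RNA helicase, YWHAH, a 14-3-3 protein, and SMS, spermine synthase, with 5 each, then SARS1, the seryl-tRNA synthetase, and INPP5E with 4. In DDX17 they lay between 2107 and 3796 bp and had pileups of 9, 20, 16, 26 and 16, against 38 at the end. The peaks with 20 and 26 were site-like and had no A-rich tract, as the sequences above show. In YWHAH the pileups were 17, 7, 14, 18 and 14, and those at 946 and 2849 bp were site-like. In SMS the pileups were 12, 18, 7, 8 and 12, and the one with 18 was site-like. In SARS1 they were 22, 10, 17 and 36. DDX17, YWHAH and SMS held both site-like peaks and peaks before A-rich sequence, whereas no peak of SARS1 or INPP5E was followed by A-rich sequence. A-rich sequence in the last 40 bp before the 3′ end was however present in the SARS1 peaks with 22, 17 and 36. It was also present in the INPP5E peaks at 3977 and 4255 bp and in the site-like peaks of YWHAH and SMS.

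Factors that cut and terminate transcripts had promoter-proximal peaks in 10 of 20 genes with usable sequence, all 20 with an end peak, against 31.4% of all genes with an end peak. Among those with more than 4 kb of usable sequence it was 5 of 7, against 50.3%, and this was not tested. Of their 17 peaks 3 were site-like, against 13.8% of all promoter-proximal peaks. PCF11, which binds the C-terminal domain and helps to terminate transcription, held site-like peaks at 1842 bp (chr11:83158739-83158892, fold enrichment 9.82, pileup 21) and at 2832 bp (chr11:83159762-83159906, fold enrichment 6.44, pileup 14), both below the 24 at its end. AATAAA started 33 and 20 bp before their 3′ ends, and both had A-rich sequence in the last 40 bp. RBBP6, a cofactor of the cleavage complex, had a pileup of 23 at 1567 bp (fold enrichment 12.9) before A-rich sequence and without a hexamer. WDR33, which recognises AAUAAA, had a pileup of 13 and the endonuclease CPSF3 12, 15 and 17. None of these was site-like.

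Elongation kinases and regulators of the C-terminal domain had peaks in 7 of 22 genes (31.8%), 18 of them with an end peak, against 23.2% of all genes and 31.4% of those with an end peak. Among those with more than 4 kb of usable sequence it was 5 of 10, against 38.3% and 50.3%, and this was not tested. None of their 9 peaks was site-like, against 13.8% of all promoter-proximal peaks. CDK12 and CDK13, the targets of THZ531, had 0, with 3369 and 3404 bp of usable sequence and end pileups of 29 and 39. Their partner cyclin K (CCNK) had 1, with a pileup of 8 before A-rich sequence and no end peak. SUPT5H, a subunit of the pausing factor DSIF, had 15 and 17, SCAF4, which binds the C-terminal domain, 11, and RTF1, which acts with the PAF complex, 11 and 9. Splicing and U1 genes had peaks in 12 of 31 genes (38.7%, median usable length 2198 bp), against the same 23.2% and 31.4%. Among those with more than 4 kb it was 7 of 8, against the same 38.3% and 50.3%, and this was not tested. Of their 17 peaks none was site-like, against the same 13.8%. The highest pileups of the named ones were 19 in LUC7L2, a U1-associated protein whose peak also lies in the span of FMC1, 18 in the Sm protein SNRPD1, 15 in the U2 protein SF3B1 and 13 in PRPF39, which is also associated with U1.

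Adrenergic transcription factors of neuroblastoma had peaks in 7 of 15 genes (46.7%), against 31.4% of all genes with an end peak, with a median pileup of 21 over 10 peaks, against 10 over all peaks of genes with an end peak. Their median usable length was 1112 bp, against 3676 bp. Among those with more than 4 kb it was 4 of 5 genes, against 50.3%, and this was not tested. None of the 10 peaks of this list was site-like, against 13.8% of all promoter-proximal peaks, and this was not tested. GATA2 had the highest, 34 at 2330 bp, against 59 at its end, and GATA2-AS1 overlaps it. TFAP2B had 26, 17 and 18, ISL1 24 and the cofactor LMO1 17. The local background was also high at GATA2 (3.99 reads), TFAP2B (2.29 to 2.75) and ISL1 (1.76), against a median of 0.60 over all promoter-proximal peaks, and was 0.68 at LMO1. Their fold enrichments lay between 5.07 and 10.7, against a median of 6.21.

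Homologous recombination and Fanconi genes, which repair breaks and crosslinks of DNA, had peaks in 6 of 29 genes, below the 31.4% of all genes with an end peak; their median usable length was 1988 bp, against 3676 bp. Among those with more than 4 kb it was 2 of 5, against 50.3%. None of their 10 peaks was site-like, against 13.8% of all promoter-proximal peaks. BRCA1 had peaks at 1354, 3976 and 4652 bp with pileups of 10, 19 and 15, against 26 at its end, each before A-rich sequence. All 3 also lie in the span of an overlapping long non-coding RNA gene on the same strand and before another annotated BRCA1 start. FANCD2 had a pileup of 14, the nuclease partner RAD50 10 and FANCB 6 and 6, also before A-rich sequence. Checkpoint and replication stress genes had peaks in 12 of 23 genes (52.2%), against 31.4% of all genes with an end peak. Among those with more than 4 kb it was 9 of 10, against 50.3%, and this was not tested. Of their 17 peaks 3 were site-like, against 13.8% of all promoter-proximal peaks. CDC25C, the mitotic phosphatase, had 18 in the span of FAM53C on the opposite strand, with no hexamer on its own strand and AATAAA on the other, CHEK2 13 and MDM4 19, 18 and 15 against 14 at its end, all 3 before A-rich sequence.

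Neuronal adhesion and guidance genes had peaks in 11 of 27 genes (40.7%), with a median usable length of 4683 bp. With more than 4 kb of usable sequence it was 11 of 23 (47.8%), near the 50.3% of all such genes with an end peak. Of 13 peaks 3 were site-like, in 3 genes, against 13.8% of all promoter-proximal peaks. NRP2, a semaphorin co-receptor, had one at 2262 bp (pileup 16, fold enrichment 6.34) without an A-rich tract, and the guidance ligand SLIT1 one at 1221 bp (pileup 9) with such a tract. The adhesion molecule L1CAM had a pileup of 22 and a fold enrichment of 14.0, with an antisense gene across it, and the netrin receptor UNC5C 29 before A-rich sequence.

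**Figure D5:**
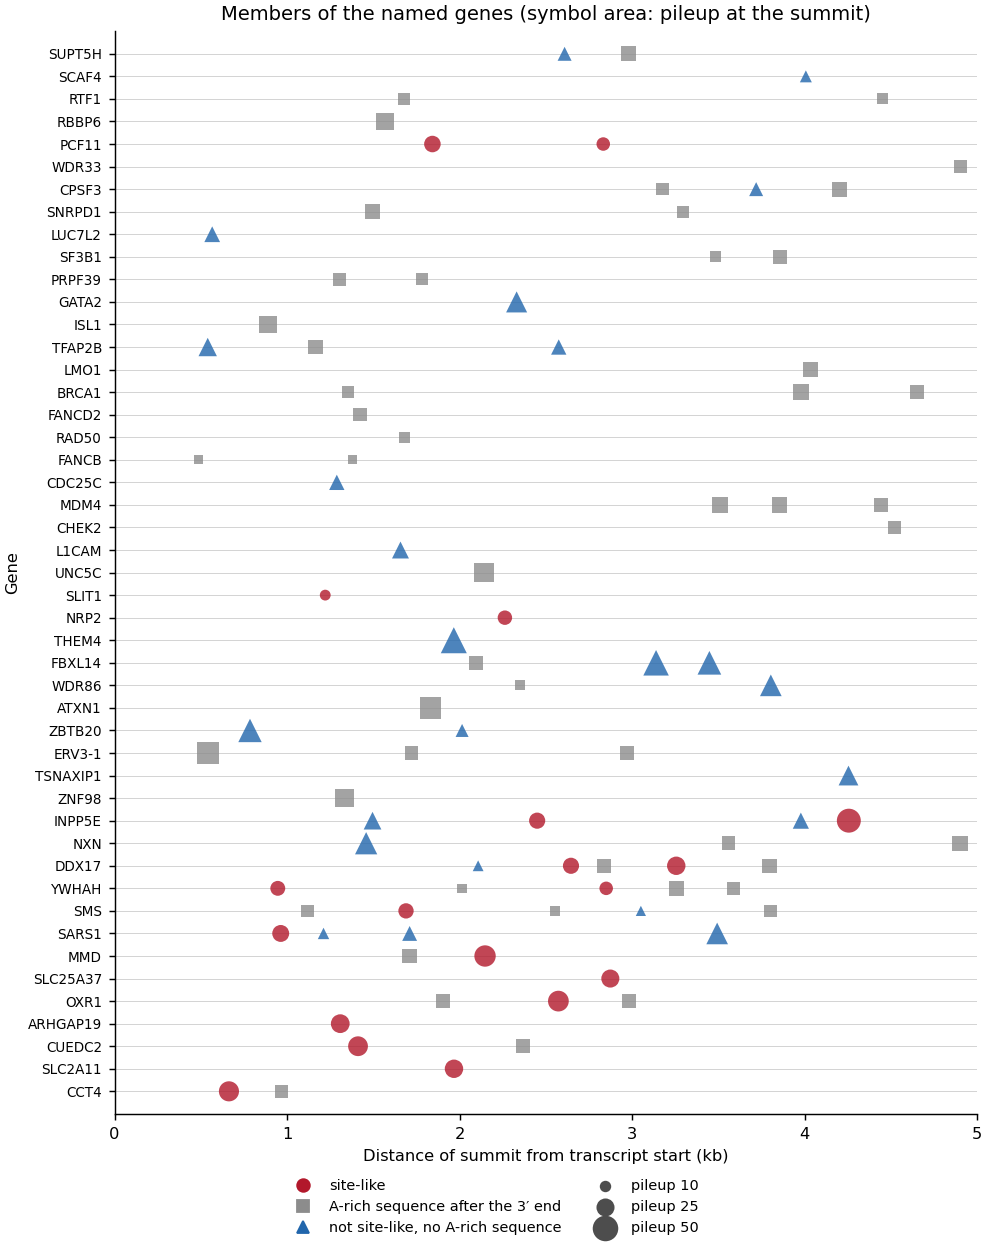
Promoter-proximal intronic peaks by gene (y axis) and by distance of the summit from the transcript start (x axis, kb). The genes are those in the text that were chosen by the selection rule given with the processing, other than CCNK. The area of each symbol is set by the pileup, and its colour and shape by sequence class. DDX17, YWHAH and SMS have 5 peaks each, and both peaks of PCF11 are site-like.

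A list of genes that the study drew from nascent RNA of neuroblastoma cells as ending early under THZ531 had peaks in 335 of 776 genes (43.2%), and in 312 of the 711 with an end peak (43.9%), against 31.4%. With more than 4 kb of usable sequence it was 232 of 368 (63.0%), against 50.3%. Of its 462 peaks 62 were site-like, near the share of 768 in 5574 over all promoter-proximal peaks. The list was made with another assay, in another neuroblastoma line and after a shorter treatment. The peaks here pool Kelly and Kelly E9R cells with and without THZ531. The study also reports higher expression among such genes, and beyond the presence of an end peak the shares were not matched for it. The counts were not tested.

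The annotation around the peaks limits the assignment to a gene. The span of 1 gene held 4712 peaks (84.5%), and 386 (6.93%) also lay in a gene on the opposite strand. In those 386, AATAAA or ATTAAA started 10 to 35 bp before the 3′ end in 16.1% on the assigned strand and in 12.2% on the other, against 21.6% and 3.88% in the peaks of a single gene. Another annotated start of the same gene lay farther in for 1717 peaks (30.8%), and the gene's start was within 1 kb of a start on the opposite strand for 1966 (35.3%).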

How the data were processed

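Libraries were prepared per the labels with an oligo(dT)-primed 3′ kit (QuantSeq REV) from DNase-treated RNA. The authors trimmed the reads, mapped them with STAR 2.5.1b to GRCh38 and called peaks with MACS2 2.1.1 on the merged libraries, with reads extended to 100 bp. The deposited list gives per peak a fold enrichment (ratio of pileup to local background), a −log10 p-value, a −log10 q-value, an integer score and a summit offset (other). It has 0 columns of single samples and 0 peaks with a strand, so depth per library is unknown. Intervals cover counting error only.

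Peaks were assigned with GENCODE 44 basic transcripts (the study used an older release), read-through transcripts left out, on the strand of the gene. Pileups were recovered from the fold and the p-value by MACS2's formulas (whole in 100% of peaks, tolerance 0.001). The 12 hexamers of the study, each named with its share in the report, were looked for over 100 bp up to the 3′ end on either strand and may overlap. U1 motifs were counted on the gene's strand, where they may overlap, as GGTGAG, as its common variant GGTAAG and as the form shifted by 1 base, GTGAGT. Densities were compared by exact sign tests over genes, strands by exact McNemar tests and peak classes by Fisher's exact test. Scripts were tested on simulated data. Python 3.11.15, numpy 2.4.6, pandas 2.3.3, scipy 1.17.1 and pysam 0.24.0 were used.

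Named genes are those of the 10 peaks with the highest −log10 q, the 5 genes with most peaks, those of the 8 strongest peaks with a hexamer at 10 to 35 bp, no hexamer on the opposite strand and no A-rich sequence, up to 4 genes of each gene list, and CDK12, CDK13 and CCNK. Members and lists were chosen with earlier results of these data known. A few items that this rule also names are not reported here.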

Additional observations from a re-analysis of the deposited data

How the results depend on the processing

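Of 58 alternatives tried over 12 results, 50 kept the direction and the side of the threshold, or for counts stayed within 1.5 times. The number of peaks was 2353 with a limit of 2 kb and 8708 with 10 kb, which follows from the width of the window. The ratio of near to farther density ranged from 1.30 to 2.48. With only AATAAA and ATTAAA, the hexamer share differed from later introns by 1.64 points (Fisher's exact test, adjusted p = 0.00933). With the strongest peak per gene and class, the difference from farther first introns became −7.32 points for a −log10 q of at least 5, and that from later introns −0.661 for any hexamer, 4.68 for A-rich sequence, −2.71 for a hexamer without it and −11.7 for a −log10 q of at least 5; comparison classes then had the best of more peaks per gene. The 5 to 10 kb window, the omission of the 50 bp margin and the site-like alternatives were chosen after seeing the data. No paired analysis was possible because the list holds no value per library, and no replicate could be left out for the same reason.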
